A study of Mus musculus with 18 samples.

Results

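Glycolysis was followed through 10 genes: the glucose transporter *Slc2a1* and the enzymes *Hk1*, *Hk2*, *Pfkl*, *Aldoa*, *Gapdh*, *Pgk1*, *Eno1*, *Pkm* and *Ldha*. They were picked by name, and all 10 were found among the 23420 rows of each of the 3 gene tables. The tables hold RNA-seq of whole embryonic mouse lungs in 3 experiments, each with 3 control and 3 mutant libraries. In the Vangl1/2 experiment (E12.5), control lungs were *Vangl1*-/- and mutant lungs lacked *Vangl2* as well (*Vangl1*-/-; *Vangl2*-/-). Both groups thus carried the *Vangl1* gene-trap allele, and the stated genotypes differ in *Vangl2*. In the published study the *Vangl2* null allele was made from a floxed allele by *Sox2-Cre*, in all tissues. The paper does not state whether the control lungs carried *Sox2-Cre*. In the Dermo1-Cre experiment (E12.5), both groups carried *Dermo1Cre*, which acts in the mesenchyme, with *Wnt5a* f/+ in controls and *Wnt5a* f/f in mutants. In the Sox9-Cre experiment (E13.5), both groups carried *Sox9Cre*, which acts in the epithelium, again with *Wnt5a* f/+ in controls and *Wnt5a* f/f in mutants. The number of embryos behind a library is not given, so p-values measure the spread between these libraries, which may be technical in part.

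Glycolysis turns glucose into pyruvate in the cytosol, and lactate dehydrogenase turns pyruvate into lactate. Slc2a1 (GLUT1) carries glucose into the cell, hexokinases trap it as glucose 6-phosphate, and phosphofructokinase sets much of the pace of the pathway. Growing embryonic tissues run glycolysis at a high rate in low oxygen, and many of its genes are targets of the hypoxia-inducible factor HIF1. *Gapdh* and *Pgk1* also serve as reference genes in qPCR.

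Between 15945393 and 19814346 reads per library fell on genes. The deposited values are normalized counts, that is, reads divided by a size factor of the library between 0.952 and 1.07. *Vangl2* was 277, 406 and 334 in Vangl1/2 controls and 86.5, 79.8 and 89.6 in the mutants, and it was the only gene past the threshold in that experiment (limma, adjusted p = 0.0318). *Wnt5a* was 472, 429.6 and 489 in Dermo1-Cre controls and 317, 436 and 229.7 in mutants, so the library labelled Dermo1-Cre mutant 2 lay within the control range. In the Sox9-Cre experiment *Wnt5a* was 473, 453 and 426 in controls and 442, 362 and 448 in mutants, and the groups overlapped. These counts are per gene and include any transcript left outside a deleted part. The summed markers of lung and its epithelium (6 of 6 genes, among them *Nkx2-1* and *Sftpc*) ranged from 9062 to 12085 over the 18 libraries and those of lung mesenchyme (7 of 7) from 25321 to 52339. Markers of adjoining tissue varied more, with summed cardiomyocyte markers (9 of 9) from 535 to 17947 and summed skeletal muscle markers (6 of 6) from 20.1 to 1703. Vangl1/2 control 2 stood apart in its effect on that experiment, where 43.2% of all genes tested passed without it. In whole lungs, fewer cells of a type and less RNA per cell cannot be told apart.

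Levels of different genes were set side by side per kilobase of transcript. In Dermo1-Cre controls *Pkm*, the last enzyme on the way to pyruvate, was the highest at 8118 ± 402 normalized counts per kilobase (mean ± SD, n = 3). It was followed by *Ldha*, lactate dehydrogenase, at 6034 ± 355, by *Aldoa*, the aldolase that splits fructose 1,6-bisphosphate, at 3812 ± 345, and by *Pgk1*, phosphoglycerate kinase, at 2136 ± 169.7. The liver-type phosphofructokinase *Pfkl* was at 816 ± 27.3 and *Slc2a1* at 398 ± 15.9. The hexokinases *Hk2* at 214 ± 17.7 and *Hk1* at 175 ± 24.2 had overlapping ranges in this experiment. At the low end stood *Gapdh*, the dehydrogenase between aldolase and *Pgk1*, at 127 ± 11.6 and *Eno1*, the enolase between *Pgk1* and *Pkm*, at 7.06 ± 1.25 normalized counts per kilobase. Sox9-Cre controls gave the same order with no overlap between neighbours. The Vangl1/2 controls differed in the place of *Gapdh*, which overlapped *Pfkl* and *Slc2a1* there. Per length, the mean of *Pkm* exceeded that of *Gapdh* 63.9-fold in Dermo1-Cre and 73.4-fold in Sox9-Cre controls, although both act in the same pathway. In Vangl1/2 controls the means differed 19.8-fold, a ratio that rests on control 2. *Gapdh* was 2141 normalized counts in that library against 353 in control 1 and 224 in control 3.

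**Figure D1:**
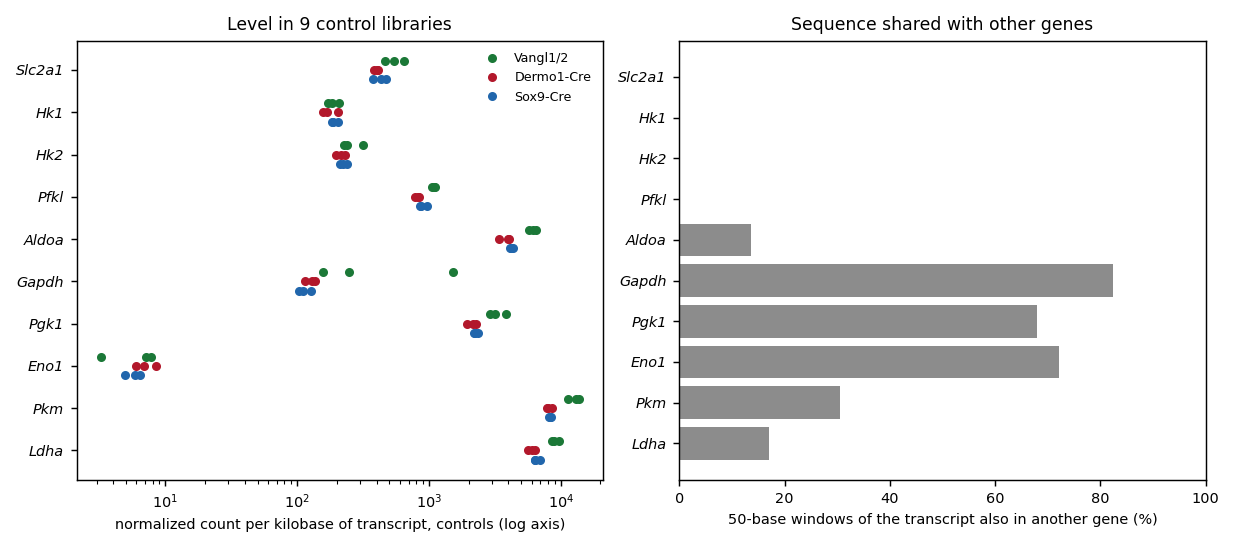
Left, normalized count per kilobase of transcript (log axis) in the 3 control libraries of each experiment, 1 point per library, colored by experiment. Right, percentage of the 50-base windows of each transcript that occur exactly in another gene. *Eno1*, and outside the Vangl1/2 experiment *Gapdh*, stand at the low end on the left, and both stand at the high end on the right, at 72.2% and 82.5%, while *Pgk1*, at 68.0%, has a level of 1953 per kilobase or more.

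*Gapdh* and *Eno1*, the lowest rows in the *Wnt5a* experiments, have near-identical copies in the genome. Of the 50-base windows of the *Gapdh* transcript (GENCODE M21, GRCm38, chromosome 6, 125161715 to 125166467, minus strand), 82.5% were found exactly in other genes, 222 in number, of which 213 are annotated as pseudogenes. The shares were 72.2% for *Eno1*, 68.0% for *Pgk1*, 30.5% for *Pkm* and 17.1% for *Ldha*, with a smaller one for *Aldoa*. They were 0.0543% for *Pfkl* and 0.0% for *Slc2a1*, *Hk1* and *Hk2*. How reads with several matching places were counted is not given in the sources used here. The levels of *Gapdh*, *Eno1* and *Pgk1* are therefore uncertain, and the part that the copies have in them was not tested. *Pgk1* had a high share beside a high level, with windows found in 5 other genes against 222 for *Gapdh*. The processed pseudogene *Gm7336* alone holds 82.5% of the *Gapdh* windows exactly. The copy of *Gapdh* with the most identical bases over the transcript is *Gm10358* on chromosome 8, annotated as protein-coding. It matches the coding sequence at 99.3% of 1002 aligned positions. The first 90 coding bases show how little separates them, with capitals at the 3 bases that differ:
Gapdh: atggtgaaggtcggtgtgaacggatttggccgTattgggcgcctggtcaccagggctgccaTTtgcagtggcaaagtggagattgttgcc
Gm10358: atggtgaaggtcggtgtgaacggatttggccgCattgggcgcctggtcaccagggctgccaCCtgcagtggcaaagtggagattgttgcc
For *Pgk1* the same stretch, from the second coding base on, is identical in the pseudogene *Pgk1-rs7* on chromosome 12, with no base to capitalize:
Pgk1: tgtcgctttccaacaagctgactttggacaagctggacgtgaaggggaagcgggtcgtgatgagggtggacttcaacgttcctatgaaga
Pgk1-rs7: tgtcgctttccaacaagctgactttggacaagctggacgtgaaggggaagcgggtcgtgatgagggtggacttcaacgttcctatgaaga
A few copies have rows of their own in the tables. The *Gapdh* copy *Gm12070* (99.9% identity over 1002 bases) was between 137 and 252 normalized counts over the 18 libraries, a level close to that of *Gapdh* itself in the *Wnt5a* experiments. The row *Gm5506*, the name under which the tables list *Eno1b* (99.5% identity to *Eno1* over 1736 bases), was above *Eno1* in all 18 libraries. It was 1097, 1172 and 396 in Dermo1-Cre controls against 226, 257 and 309.6 in mutants, which did not overlap (log2 fold change -1.61, SE 0.34, limma adjusted p = 0.194). In the other experiments it lay between 61.8 and 139 normalized counts, and was named here after its values were seen.

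No member passed the threshold of an adjusted p of 0.05 in any of the 3 experiments (limma, Benjamini-Hochberg adjustment over all genes tested). All 10 members passed the filter on low values in each. Of all genes tested, 0.00699% were called in the Vangl1/2 experiment, 0.014% in the Dermo1-Cre experiment and 0.0% in the Sox9-Cre experiment. edgeR and DESeq2 on the reads recovered from the values also called 0 members in each. At an unadjusted p under 0.05, limma gave 1 of 10 members in the Vangl1/2 experiment, *Hk2*, higher in mutants (all genes higher, 12.0%). In the Dermo1-Cre experiment it gave 5 of 10, *Slc2a1*, *Pfkl*, *Aldoa*, *Gapdh* and *Pkm*, each lower in mutants (all genes lower, 4.76%). In the Sox9-Cre experiment it gave 2 of 10, *Pgk1* and *Ldha*, each higher in mutants (all genes higher, 1.08%). These counts depended on single libraries. In either direction, the Dermo1-Cre count was 1 without control 2 (all genes, 814 of 14277) and 1 without mutant 3 (1189). It was 7 without mutant 2 (1899). The Sox9-Cre count was 0 without control 3 (all genes, 315 of 14293) and 4 without mutant 3 (728). Some of the marker sums also separated the Dermo1-Cre groups, without an all-gene share to set beside sums of picked genes. Those of neurons (5 of 5 genes) were 367, 348 and 624 in controls and 758, 1641 and 1674 in mutants, each mutant higher. Those of lung and its epithelium were 12085, 11246 and 11042 against 10314, 10428 and 10486, and those of liver (4 of 4) 291, 142 and 129 against 128, 65.5 and 85.9, each mutant lower. The liver sum also separated the Vangl1/2 groups (140.5, 207 and 141 against 124, 139.9 and 125), but control 1 was barely above mutant 2. No sum of the 9 marker lists separated the Sox9-Cre groups. The part of these cells in the members' values was not tested. Vangl1/2 groups overlapped for all 10 members, while 22.3% of all genes tested had groups that did not. The median log2 fold change of the 10 members was -0.12 in the Vangl1/2 experiment, -0.19 in the Dermo1-Cre experiment and 0.12 in the Sox9-Cre experiment, against medians over all genes tested of -0.01, 0.00 and 0.00. In the Dermo1-Cre experiment 9 of 10 estimates were below 0, and in the Sox9-Cre experiment 7 of 10 were above 0.

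**Figure D2:**
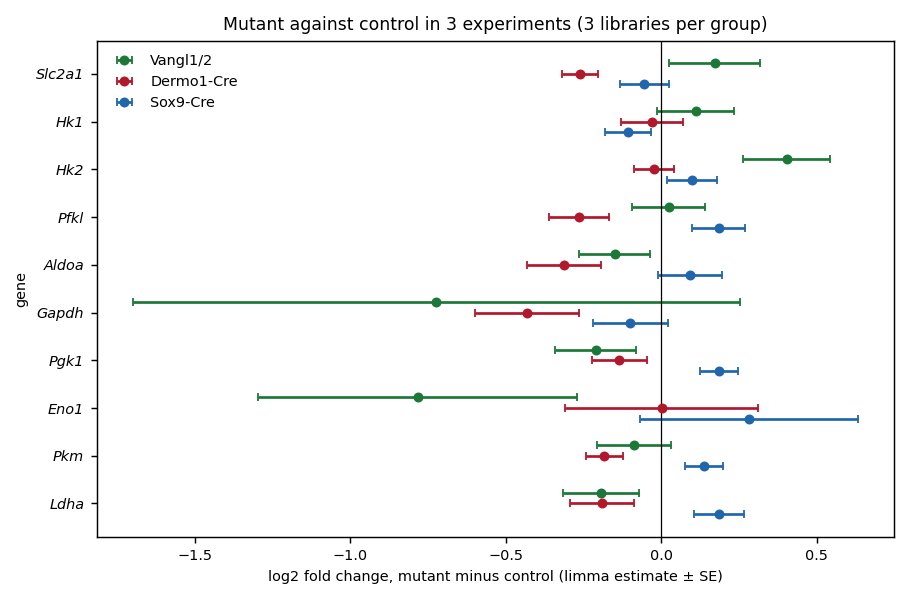
Log2 fold change of mutant minus control for the 10 genes (limma estimate ± SE, 3 libraries per group), colored by experiment. The Dermo1-Cre estimates lie at or below 0.00, most Sox9-Cre estimates lie above it, and the wide Vangl1/2 bars of *Gapdh* and *Eno1* have an SE of 0.98 and 0.51.

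Glucose entry through *Slc2a1* gave the smallest adjusted p of the 10 members. In the Dermo1-Cre experiment it was 1239.6, 1314 and 1339.6 normalized counts in the controls and 1116, 1125 and 1006 in the mutants. Each mutant library lay below each control library, with a log2 fold change of -0.26 (SE 0.06, limma adjusted p = 0.198), so the test was not passed. Groups that do not overlap with mutants lower were found for 2 of 10 members here, *Slc2a1* and *Pkm*, and for 7.92% of all genes tested. In the Vangl1/2 experiment the transporter was 1763, 2097 and 1518 in controls and 1712, 2226 and 2100.4 in mutants, and in the Sox9-Cre experiment 1235, 1528 and 1406 in controls against 1363, 1349.8 and 1285 in mutants. The groups overlapped in both. The second carrier *Slc2a3* (GLUT3), which is no member, was 262, 330.2 and 310.1 in Dermo1-Cre controls and 346, 339 and 362 in mutants, each mutant above each control (log2 fold change 0.22, SE 0.10, limma adjusted p = 0.482). Per length, *Slc2a1* exceeded *Slc2a3* by 5.28 ± 0.46 in Dermo1-Cre controls and by 3.77 ± 0.35 in mutants (ratio, mean ± SD, n = 3), a difference that was not tested.

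The hexokinase groups overlapped in all 3 experiments, and *Hk2* in the Vangl1/2 experiment had the largest estimate. *Hk2*, the inducible isozyme, was 1308, 1728 and 1245 in Vangl1/2 controls and 1696, 1924 and 1993 in mutants. Control 2 lay just above mutant 1, so the groups overlapped, and the log2 fold change was 0.40 (SE 0.14, limma adjusted p = 0.233). Without control 2, *Hk2* passed the threshold with a log2 fold change of 0.55 (limma adjusted p = 0.000631), and it was 1 of 2 members called, the other being *Pgk1*. The 2 of 10 are a share below the 43.2% of all genes that passed in that fit. In 1 fit over the 18 libraries *Hk2* also passed at the same estimate of 0.40 (limma adjusted p = 0.0234), as did 23.1% of all genes. Removing the dependence of the values on transcript length, the estimate was 0.16 (limma adjusted p = 0.612), for a transcript of 5513 bases, the longest of the 10. *Hk2* was 1186, 1276 and 1081 in Dermo1-Cre controls and 1203, 1104 and 1172 in mutants, and 1165, 1318 and 1219 against 1189, 1437 and 1342 in the Sox9-Cre experiment. *Hk1*, the constitutive isozyme, ranged from 667 to 961 over the 18 libraries, and its log2 fold changes were 0.11, -0.03 and -0.11 for Vangl1/2, Dermo1-Cre and Sox9-Cre mutants. The ratio of *Hk2* to *Hk1* per length was 1.37 ± 0.12 in Vangl1/2 controls and 1.68 ± 0.066 in mutants (mean ± SD, n = 3), a difference that was not tested.

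**Figure D3:**
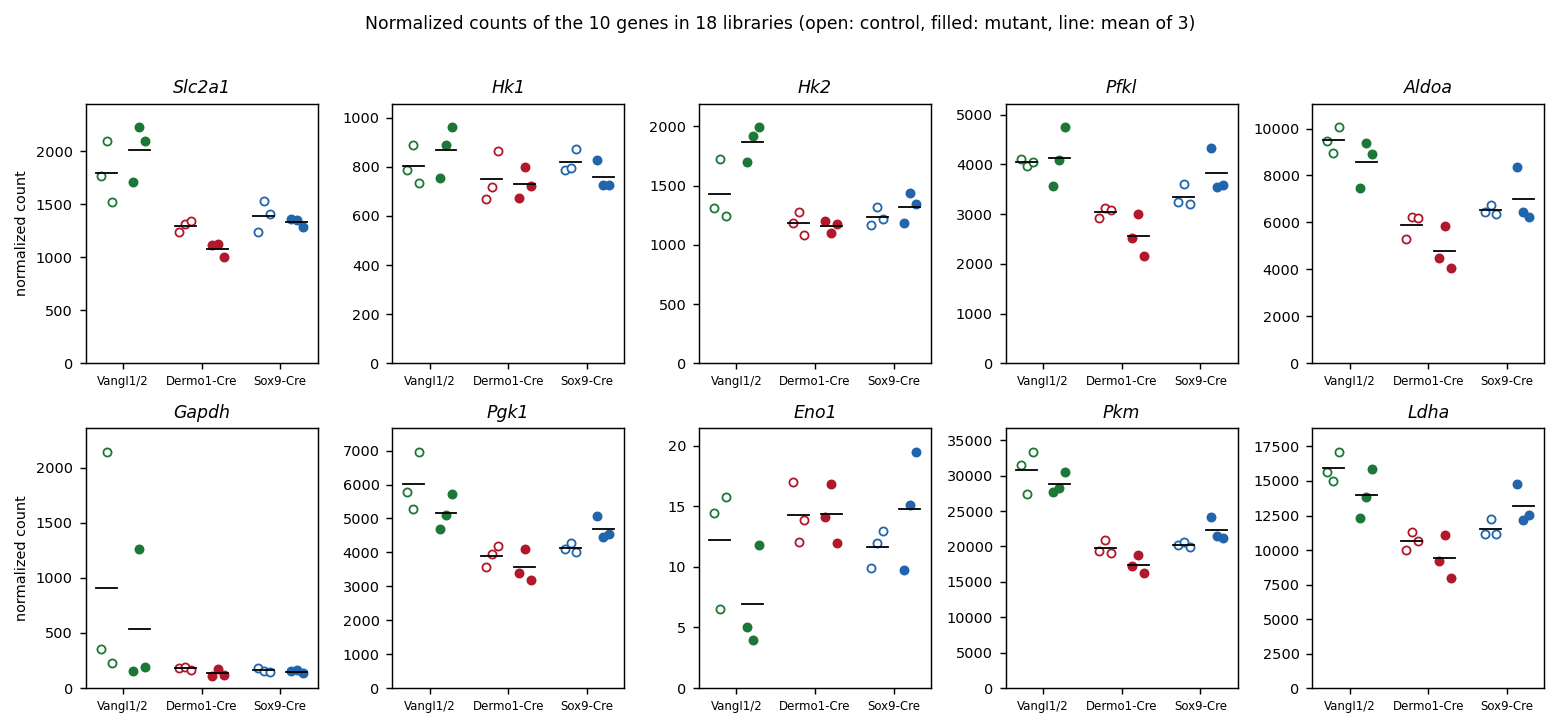
Normalized counts (linear axis from 0) of the 10 genes in the 18 libraries, with open circles for controls, filled circles for mutants, colors for experiments and lines for the mean of 3. In *Gapdh*, control 2 and mutant 2 of the Vangl1/2 experiment stand at 2141 and 1263, above the other 4 libraries at 156 to 353, and in *Pfkl*, *Aldoa* and *Ldha* the Dermo1-Cre mutants 1 and 3 stand below all their controls.

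The middle of the pathway was read from *Pfkl* and *Aldoa*. *Pfkl* was 2929, 3120.3 and 3085 in Dermo1-Cre controls and 2517, 2996 and 2155 in mutants, with mutant 2 inside the control range and mutants 1 and 3 below it. The log2 fold change was -0.26 (SE 0.10, limma adjusted p = 0.427). *Aldoa* followed the same pattern, with 5288, 6224 and 6205 in controls and 4479, 5867 and 4049 in mutants (log2 fold change -0.31, SE 0.12, limma adjusted p = 0.441). Without mutant 2 the estimates were -0.39 and -0.47, and neither passed (limma adjusted p = 0.137 and 0.131). In the Sox9-Cre experiment *Pfkl* was 3245, 3610.2 and 3205 in controls and 4326, 3547 and 3594 in mutants, and *Aldoa* was 6439, 6745 and 6347 in controls against 8349, 6426 and 6232 in mutants. Mutant 1 was the highest library in both. For *Aldoa* it set the direction, since the log2 fold change of 0.09 was -0.04 without it. In the Vangl1/2 experiment *Pfkl* was 4105, 3959.7 and 4053 in controls and 3558, 4097 and 4745 in mutants, a wider spread among mutants than among controls around nearly equal means. *Aldoa* was 9484, 8957 and 10054 in controls against 7476, 9398 and 8898 in mutants, a log2 fold change of -0.15 (SE 0.11) that turned to 0.10 once the dependence on transcript length was removed.

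*Gapdh* varied more between libraries than any other gene used as a qPCR reference, save in the Sox9-Cre experiment. In the Vangl1/2 experiment it was 353, 2141 and 224 in controls and 156, 1263 and 190.1 in mutants. The 2 libraries numbered 2, one of each group, were 10.3 and 6.10 times the median of the other 4, which lay between 156 and 353. The highest library exceeded the lowest 13.7-fold, a ratio reached by 0.294% of all genes tested in this experiment, whereas the other 16 reference genes had ratios between 1.12 and 2.06. *Gm12070*, the copy named above, was 242, 185 and 252 in those controls and 234, 208 and 215 in those mutants, and so did not share the high values. The log2 fold change of *Gapdh* was -0.72 (SE 0.98, limma adjusted p = 0.668). It was 0.25 without control 2 and -0.70 without both libraries numbered 2, where it passed (limma adjusted p = 0.0160) in a fit that called 38.3% of all genes tested. The ratio of the highest to the lowest library was 1.76 in the Dermo1-Cre experiment (other references, 1.03 to 1.31) and 1.33 in the Sox9-Cre experiment (1.05 to 1.47). *Gapdh* was 184, 195 and 162 in Dermo1-Cre controls and 111, 175 and 122 in mutants (log2 fold change -0.43, SE 0.17, limma adjusted p = 0.443), again with mutant 2 inside the control range. In the Sox9-Cre experiment it was 179, 158 and 146 in controls against 153, 162 and 135 in mutants, with overlapping groups.

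*Pgk1*, which makes the first ATP of the pathway, was 4091, 4265 and 4006 in Sox9-Cre controls and 5078, 4443 and 4556 in mutants. Each mutant lay above each control, with a log2 fold change of 0.19 (SE 0.06, limma adjusted p = 1.0). Such separation with mutants higher was found for 2 of 10 members, *Pgk1* and *Pkm*, and for 4.42% of all genes tested. In the other experiments the groups overlapped: *Pgk1* was 3564, 3952 and 4176 in Dermo1-Cre controls and 3399, 4092 and 3194 in mutants, and 5781, 5268 and 6959 against 4689.7, 5103 and 5707 in the Vangl1/2 experiment. There its log2 fold change was -0.21 with all libraries, -0.30 without control 2 (limma adjusted p = 0.0336) and -0.02 with the dependence on transcript length removed. *Eno1*, the main enolase of embryonic tissue, had few reads and wide errors. It was 14.5, 6.52 and 15.8 in Vangl1/2 controls and 5.03, 3.94 and 11.8 in mutants, and between 9.76 and 19.5 in the 12 libraries of the *Wnt5a* experiments. Its log2 fold changes of -0.78, 0.00 and 0.28 had SEs of 0.51, 0.31 and 0.35 in the order above.

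The last steps, *Pkm* and *Ldha*, had estimates of opposite sign in the *Wnt5a* experiments. *Pkm* was 19331, 20857 and 19038 in Dermo1-Cre controls and 17169, 18748 and 16294 in mutants, with every mutant below every control (log2 fold change -0.18, SE 0.06, limma adjusted p = 0.375). In the Sox9-Cre experiment it was 20139.6, 20643 and 19960.4 in controls and 24141, 21500.1 and 21228 in mutants, with every mutant above every control (log2 fold change 0.14, SE 0.06, limma adjusted p = 1.0). In fold terms these are 0.881 and 1.1 times the control, and neither passed the test. *Pkm* in the Vangl1/2 experiment was 31496, 27362 and 33331 in controls against 27698, 28286 and 30534 in mutants, with overlap and a log2 fold change of -0.09. *Ldha* was 10028, 11283 and 10657 in Dermo1-Cre controls and 9180.5, 11119 and 7956 in mutants, where mutant 2 again lay among the controls (log2 fold change -0.19, SE 0.10, limma adjusted p = 0.553). It was 11181, 12243 and 11174 in Sox9-Cre controls and 14816, 12144 and 12533 in mutants (log2 fold change 0.19, SE 0.08, limma adjusted p = 1.0). Mutant 2 lay within the control range and mutant 1 stood well above it. Vangl1/2 values of *Ldha* were 15664, 15016 and 17100.5 in controls against 12289, 13806 and 15842 in mutants, and its log2 fold change of -0.19 (SE 0.12) became 0.01 with the dependence on transcript length removed.

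**Figure D4:**
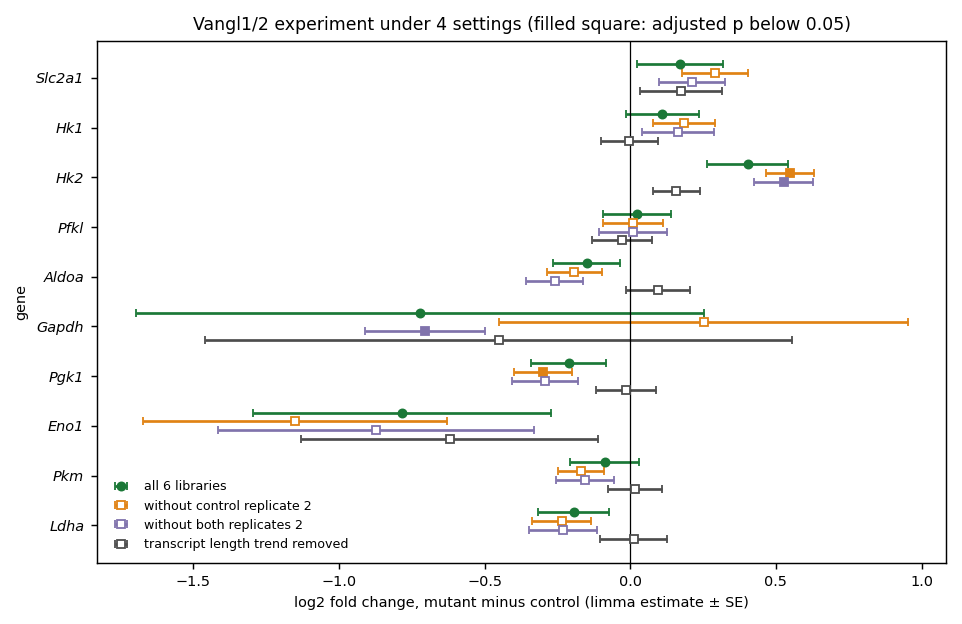
Log2 fold change of mutant minus control in the Vangl1/2 experiment (limma estimate ± SE) under 4 settings, with circles for all 6 libraries and squares for the other settings, filled where the adjusted p is below 0.05. *Hk2* and *Pgk1* are filled without control replicate 2, *Hk2* and *Gapdh* without both replicates 2, and none of the 10 genes is filled once the transcript length trend is removed.

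Deviations from the group mean were looked at for 5 members, *Pfkl*, *Aldoa*, *Pgk1*, *Pkm* and *Ldha*, which were chosen after their values were seen. *Gapdh* and *Eno1* are not among them, and *Gapdh* went another way in Vangl1/2 control 2, where it was the highest of its group and the 5 enzymes had a median deviation of -0.08. *Gpi1*, *Tpi1* and *Pgam1* were picked from the 21 other glycolysis enzymes and isozymes, and with them the 5 make 8. In 13 of 18 libraries all 8 lay on the same side of the group mean. No such count was made for other genes, so it describes the picked enzymes and not the pathway. *Hk2*, left out, was the lowest mutant of its group in Dermo1-Cre mutant 2 (1104) and Sox9-Cre mutant 1 (1189). *Slc2a1* and *Hk1*, also left out, were the highest mutants in both. In the library labelled Dermo1-Cre mutant 2, all 5 were above the group mean, by 0.24 on the log2 scale (median of 5), and in mutant 3 all 5 were below it (-0.23). Sox9-Cre mutant 1 was the other high library (0.18). The median deviation over all genes tested in all experiments was 0.00 in each of these 3 libraries. *Gpi1*, *Tpi1* and *Pgam1* had medians of 0.16, -0.08 and 0.18 there. Skeletal muscle markers were also highest in 2 of these libraries. Their sum was 1703 normalized counts in Dermo1-Cre mutant 2 and 1578 in Sox9-Cre mutant 1, against 108 and 112 in the other Dermo1-Cre mutants and 78.5 and 40.0 in the other Sox9-Cre mutants. Among the controls it was 827 in Dermo1-Cre control 3 and 887 in Sox9-Cre control 3, whose 5 enzymes deviated by 0.02 and -0.04. Without Dermo1-Cre mutant 2 the log2 fold changes were -0.29 for *Slc2a1*, -0.63 for *Gapdh*, -0.24 for *Pgk1*, -0.24 for *Pkm* and -0.32 for *Ldha*, and none passed (limma adjusted p from 0.159 to 0.223). Without Sox9-Cre mutant 1 they were 0.09 for *Pfkl*, 0.13 for *Pgk1*, 0.08 for *Pkm* and 0.10 for *Ldha*. The part of muscle RNA in the enzyme values was not tested.

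**Figure D5:**
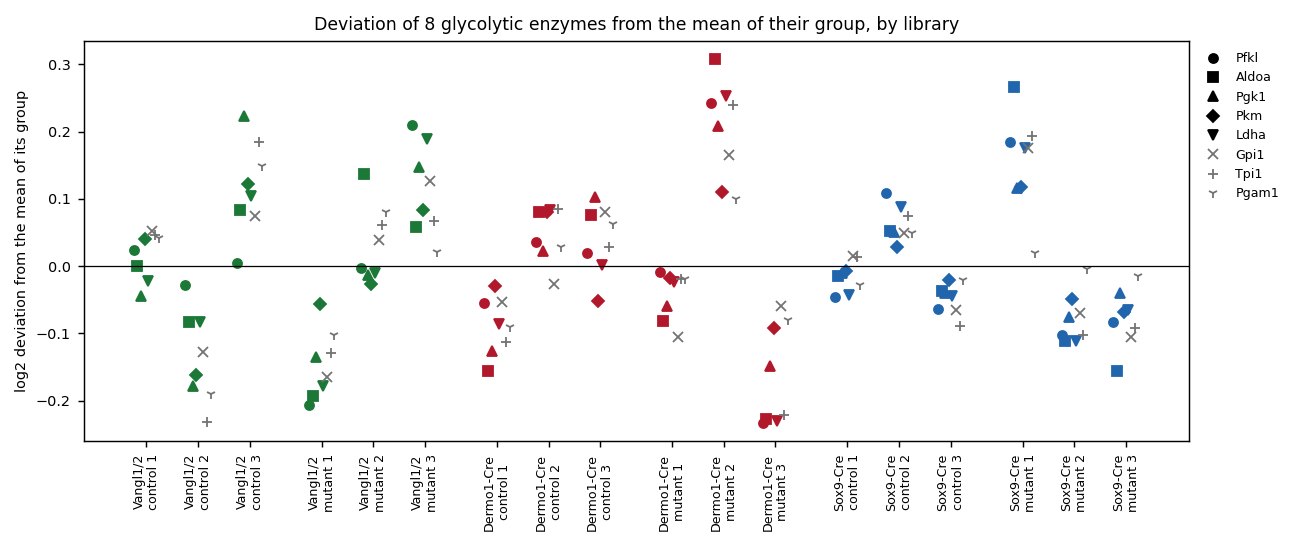
Log2 deviation of 8 picked glycolytic enzymes from the mean of their own group in each of the 18 libraries, with colored symbols for the 5 members and gray symbols for *Gpi1*, *Tpi1* and *Pgam1*. In 13 of 18 libraries all 8 enzymes lie on the same side of 0, above it in Dermo1-Cre mutant 2 and Sox9-Cre mutant 1 and below it in Dermo1-Cre mutant 3 and Vangl1/2 mutant 1, for example.

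The promoters of these enzymes differ in the letters ACGTG, a form of the core motif of HIF1. ACGTG was searched on both strands in RefSeq windows of 300 bases, from 250 before to 50 after the annotated start (GRCm38.p6). Other forms of the motif were not searched, so a window without a match may hold them. All 10 members had a window. At least 1 match was found in 9 of their 17 windows, against 19.6% of all 32851 windows of this length. Overlapping *Aldoa* windows among the 9 hold the same match. By gene, 8 of 10 members had a match in some window, a count that cannot be set against a share of windows. A CACGTG, which also spells the E-box bound by MYC-family and other bHLH factors, counts once on each strand, so its count is 2. One window each of *Ldha* (chr7:46845554-46845853, plus strand, 5 matches), *Pgk1* (chrX:106186850-106187149, plus strand, 2 matches) and *Slc2a1* (chr4:119108495-119108794, plus strand, 1 match) is printed to show where the matches lie, and *Pfkl* (chr10:78009758-78010057, minus strand, no match) to show a window without one. The other *Ldha* window, not printed, has no match. Capitals mark the matches on either strand:
Ldha: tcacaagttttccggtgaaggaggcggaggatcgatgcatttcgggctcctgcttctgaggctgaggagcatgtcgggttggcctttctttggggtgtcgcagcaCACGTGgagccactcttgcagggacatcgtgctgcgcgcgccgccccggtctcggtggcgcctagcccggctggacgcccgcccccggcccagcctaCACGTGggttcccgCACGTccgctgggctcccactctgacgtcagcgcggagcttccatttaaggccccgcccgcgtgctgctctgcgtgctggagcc
Pgk1: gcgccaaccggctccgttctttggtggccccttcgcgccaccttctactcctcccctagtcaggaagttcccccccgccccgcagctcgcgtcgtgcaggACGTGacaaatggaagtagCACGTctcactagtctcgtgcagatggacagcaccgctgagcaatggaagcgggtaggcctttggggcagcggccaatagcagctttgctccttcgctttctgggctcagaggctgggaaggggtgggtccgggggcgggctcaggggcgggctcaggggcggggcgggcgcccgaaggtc
Slc2a1: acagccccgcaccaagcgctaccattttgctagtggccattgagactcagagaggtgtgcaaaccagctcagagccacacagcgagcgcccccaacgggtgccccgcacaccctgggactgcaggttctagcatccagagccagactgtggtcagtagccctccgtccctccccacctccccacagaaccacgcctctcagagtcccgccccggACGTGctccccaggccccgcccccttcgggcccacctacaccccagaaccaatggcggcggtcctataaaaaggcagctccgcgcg
Pfkl: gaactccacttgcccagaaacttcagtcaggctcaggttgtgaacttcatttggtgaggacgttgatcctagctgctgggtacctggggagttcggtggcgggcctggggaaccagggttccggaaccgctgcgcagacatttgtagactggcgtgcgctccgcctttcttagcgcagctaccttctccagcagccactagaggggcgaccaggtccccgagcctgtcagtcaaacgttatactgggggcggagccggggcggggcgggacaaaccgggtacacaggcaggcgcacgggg
A match describes these letters only, and the binding of a factor was not measured.

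Whether a member responded differently in 2 experiments was asked directly, by the difference of the mutant effects in 1 model over the 18 libraries. The error of each difference was estimated over all 18 libraries, so the spread of the Vangl1/2 libraries also enters the Dermo1-Cre minus Sox9-Cre difference. No member passed in any of the 3 differences (limma, adjusted over 13980 genes), where 0.0143% of genes were called for Vangl1/2 minus Dermo1-Cre, 0.0143% for Vangl1/2 minus Sox9-Cre and 0.0% for Dermo1-Cre minus Sox9-Cre. The Dermo1-Cre effect minus the Sox9-Cre effect was -0.45 for *Pfkl* (SE 0.16), -0.41 for *Aldoa* (SE 0.18), -0.38 for *Ldha* (SE 0.16) and -0.32 for *Pkm* (SE 0.12) on the log2 scale. Those 4 of 10 members had an unadjusted p under 0.05 in this difference, as did 2.63% of all genes, and each had an adjusted p of 1.0 (limma). Stage and Cre driver differ together between these experiments and cannot be told apart. For Vangl1/2 minus Dermo1-Cre the largest differences with an unadjusted p under 0.05 were those of *Slc2a1* (0.43, SE 0.16) and *Hk2* (0.43, SE 0.15), 2 of 10 members against 17.3% of all genes. Both passed without Vangl1/2 control 2 (limma adjusted p = 0.00563 and 0.00172), in a fit that called 32.8% of all genes. For Vangl1/2 minus Sox9-Cre they were *Pgk1* (-0.40, SE 0.15) and *Ldha* (-0.38, SE 0.16), 2 of 10 members against 25.1% of all genes. Without that library, 5 of 10 members and 39.3% of all genes passed, the members being *Hk2*, *Pgk1*, *Ldha*, *Eno1* and *Pkm*.

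Other genes around the pathway, in 8 lists, gave no call in any experiment with all libraries (limma, adjusted p of 0.05). Of the other glycolysis enzymes and isozymes, 17 of 21 were tested in the Dermo1-Cre experiment, 15 had estimates below 0, and the median log2 fold change was -0.14. At an unadjusted p under 0.05 (limma), 3 of 17 were lower in that experiment (all genes lower, 4.76%). In the Sox9-Cre experiment 1 of 17 was higher and 1 lower (all genes, 155 higher and 402 lower of 14293). In the Vangl1/2 experiment 0 of 16 stood out (all genes, 1714 higher and 1224 lower of 14303). The 3 with the smallest p in the Dermo1-Cre experiment were *Ldhb* (1567, 1677 and 1756 against 1533, 1498 and 1514), *Gpi1* (log2 fold change -0.19) and *Pgam1* (-0.14). In the Sox9-Cre experiment they were *Pgam1*, phosphoglycerate mutase, at 2478, 2615 and 2492 against 2852, 2804 and 2786, its muscle isozyme *Pgam2* and *Tpi1*. *Pgam2* was 103, 114 and 243 in Sox9-Cre controls and 110.3, 47.3 and 26.7 in mutants, beside summed cardiomyocyte markers of 4554, 7527 and 16327 and 4930.4, 2509.6 and 945, and the part of heart RNA in it was not tested. For Vangl1/2 mutants 13 of 16 tested enzymes had estimates below 0 (median -0.12), with *Bpgm* (-0.37) and *Ldhb* (-0.29) among those of smallest p. Over all genes tested, 7322 of 14303 estimates were below 0 there.

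Among the other glucose and lactate carriers, *Slc16a3* (MCT4), which exports lactate, was 463, 542 and 627 in Dermo1-Cre controls and 429.6, 500.2 and 303 in mutants, with mutant 2 among the controls as for *Ldha*. *Slc2a8* had a log2 fold change of 0.27 there. *Bsg* (-0.28), which carries MCT proteins to the membrane, and *Slc2a5* (0.53) led the list in the Vangl1/2 experiment with *Slc2a3* (0.30), and *Slc2a13* (-0.35), *Slc2a8* (0.27) and *Slc2a10* (0.17) in the Sox9-Cre experiment. The regulators of flux were led in the Vangl1/2 experiment by *Pdp2*, a phosphatase that activates pyruvate dehydrogenase (0.51), *Pfkfb3*, which makes the activator of phosphofructokinase (0.28), and *Mlxip* (0.49). In the Dermo1-Cre experiment they were *Pdk2*, *Trp53* and *Epas1* (-0.25, -0.14 and -0.14) and in the Sox9-Cre experiment *Pdk4*, *Epas1* and *Pfkfb4* (-0.86, -0.10 and 0.16). Pyruvate entry into mitochondria had 7 of 8 estimates below 0 in the Vangl1/2 experiment (all genes, 7322 of 14303). The pyruvate carrier genes *Mpc2* (-0.52) and *Mpc1* (-0.43) and *Pdhb* (-0.26) came first. In the *Wnt5a* experiments the 8 estimates of this list lay between -0.10 and 0.05. The *Mpc2* and *Mpc1* transcripts have 1025 and 958 bases, and those of *Pdp2* and *Mlxip* have 5692 and 7303. The part of transcript length in these Vangl1/2 estimates was not tested.

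The pentose phosphate branch also had 7 of 8 estimates below 0 in the Vangl1/2 experiment, led by *Taldo1* (-0.44) and *Pgls* (-0.44), with *H6pd* on the other side (0.35). The dependence on transcript length was not removed from the Vangl1/2 estimates given for these lists. In the Dermo1-Cre experiment *Rpe* (0.16), *Pgd* (-0.10) and *Taldo1* (-0.10) came first and in the Sox9-Cre experiment *Tkt*, *H6pd* and *Rpia* (0.09, -0.06 and 0.07). The gluconeogenesis list had 2 or 3 of 6 genes tested, with *G6pc3* and *Pck2* between -0.19 and 0.01 in the 3 experiments and *Fbp1* at 0.06 in the Dermo1-Cre experiment. Of the other hypoxia-response genes, 15 of 21 had estimates below 0 in the Dermo1-Cre experiment (median -0.08) and 16 of 21 above 0 in the Sox9-Cre experiment (median 0.07). *Ddit4*, an inhibitor of mTORC1, was 540.1, 554 and 563 in Dermo1-Cre controls and 477, 504 and 432 in mutants, every mutant below every control (limma adjusted p = 0.351), and *Egln3* was at -0.33. *Adm*, *Vegfa* and *Ankrd37* led in the Sox9-Cre experiment (-0.76, 0.12 and 0.20) and *Higd1a* in the Vangl1/2 experiment (-0.34). Of the 17 genes used as qPCR references, those of smallest p included *Actb* (-0.16) and *Gapdh* in the Dermo1-Cre experiment, *Ppia* (0.23) and *Pgk1* in the Sox9-Cre experiment, and *Polr2a* (0.54), *Ppia* (-0.54) and *Rpl13a* (-0.55) in the Vangl1/2 experiment, all as log2 fold changes.

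The genes whose pattern was most like that of *Gapdh* were sought over the 18 libraries, by Pearson's r of log2 values centred on the mean of each group, among 13980 genes. They included *Csf3r* (r = 0.92), *Rara* (r = 0.91), *S1pr1* (r = 0.89) and *9930013L23Rik* (r = 0.89). *Rara*, the retinoic acid receptor alpha, was 1016, 1216 and 924 in Vangl1/2 controls and 1046, 1289.9 and 1079 in mutants, so the libraries numbered 2 were the highest of their groups as in *Gapdh*, though by far less. With those 2 libraries left out of the correlation, the r values of the genes named were between 0.72 and 0.81. The group means still included those 2 libraries and set the deviations of the others. These r values therefore cannot show a likeness without them. The libraries and their depth are shared by all points, and r is given as a description.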

How the data were processed

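RNA of whole lungs was sequenced in 18 libraries, in 3 experiments of 3 control and 3 mutant libraries, grouped by the genotypes in the labels. Per the labels' processing notes, the authors used Trim Galore, HISAT2, featureCounts and DESeq2 with build mm10 (versions, strand setting and handling of reads with several matches are not given in the sources used here). The deposited values are normalized gene counts, a signal in which the authors divided each library's reads by its size factor. In all libraries 100% of values gave whole reads within 0.05 of a read once multiplied by the size factor, with a largest deviation of 4.7e-05 reads. The authors' mean column (a signal), log2 fold change and p-value columns of the deposited tables hold their own comparison and were not used.

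The test took in every gene that reached 10 normalized counts in 3 or more of an experiment's 6 libraries (14303 in the Vangl1/2, 14277 in the Dermo1-Cre and 14293 in the Sox9-Cre experiment). It was run on log2(normalized count + 1) with limma 3.58.1 (R 4.3.3, trend), which understates the change of low genes. P-values were adjusted by Benjamini-Hochberg over all genes tested, with a threshold of 0.05, and each experiment was fitted alone. Differences between experiments came from 1 fit over the 18 libraries, adjusted over 13980 genes. The tables were normalized separately, so no level was tested between them. edgeR 4.0.16 and DESeq2 1.42.0 on the recovered reads, other pseudocounts (0.5 and 10), no filter, other scalings, removal of a lowess trend on transcript length, the replicate number as a block and leaving out libraries were tried as alternatives. The tests were checked on simulated data. With 15945393 to 19814346 reads per library, counting error weighs most on the members with the fewest reads, *Eno1* and *Gapdh*.

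Transcript lengths and positions came from GENCODE M21 (GRCm38), matched by name for 92.9% of rows, shared windows from exact matches of 50 bases, copies from BLAST 2.17.0 and promoters from RefSeq. Of the rows of each experiment, 27 carried a date in place of a symbol. The 10 members and all gene lists were chosen with earlier results of these data known. All members were named, with the 3 genes of smallest p in each other list and experiment and the 5 genes most like *Gapdh*, except that a few genes are not reported here. Figures were drawn with matplotlib 3.10.9.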

Additional observations from a re-analysis of the deposited data

Results flagged for a closer look

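*Pkm* was marked for a closer look because its libraries separated in opposite directions in the *Wnt5a* experiments. All 3 Dermo1-Cre mutants were below all 3 controls, as for 7.92% of all genes tested. All 3 Sox9-Cre mutants were above all 3 controls, as for 4.42% of all genes tested. The Sox9-Cre log2 fold change of 0.14 was 0.08 without mutant 1. The Dermo1-Cre effect minus the Sox9-Cre effect was -0.32 on the log2 scale (SE 0.12), and the test of this difference was not passed (limma adjusted p = 1.0). That SE includes the spread of the Vangl1/2 libraries, whereas each *Wnt5a* experiment fitted alone had an SE of 0.06. A fit of the *Wnt5a* experiments without the Vangl1/2 libraries was not run. In groups of 3 libraries no test for a single distant library was run.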

How the results depend on the processing

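In the Vangl1/2 experiment 0 members passed with all libraries and in 14 of 17 alternative settings. The exceptions were 2 members without control replicate 2 (*Hk2* and *Pgk1*), 2 without both replicates 2, a setting chosen after seeing the data (*Hk2*, 0.53, and *Gapdh*), and 1 in the fit over 18 libraries (*Hk2*). Leaving out 1 library gave 0 to 2 members there, and 0 in each of the 16 settings of the Dermo1-Cre and of the Sox9-Cre experiment. For the differences between experiments, leaving out 1 library gave 0 to 2 members for Vangl1/2 minus Dermo1-Cre, 0 to 5 for Vangl1/2 minus Sox9-Cre and 0 for Dermo1-Cre minus Sox9-Cre, the 2 and the 5 without Vangl1/2 control replicate 2. With the transcript length trend removed, Vangl1/2 log2 fold changes turned to -0.0030 for *Hk1*, -0.027 for *Pfkl*, 0.095 for *Aldoa*, 0.015 for *Pkm* and 0.012 for *Ldha*, and the cause was not tested. Directions also turned when 1 library was left out, for *Pfkl* (-0.081 to 0.13) and *Gapdh* (-1.68 to 0.25) in the Vangl1/2 experiment, *Hk1* (-0.11 to 0.077), *Hk2* (-0.086 to 0.033) and *Eno1* (-0.12 to 0.13) in the Dermo1-Cre experiment, and *Slc2a1* (-0.14 to 0.016) and *Aldoa* (-0.040 to 0.17) in the Sox9-Cre experiment. Of 490 values of single members under an alternative, 469 kept direction and side of the threshold. Correlations of the deviations of same-numbered libraries ran from -0.22 to 0.30 and were over 0.1 for 1 of 3 pairs in the Vangl1/2, 0 in the Dermo1-Cre and 1 in the Sox9-Cre experiment, so the numbers were not taken to pair the libraries. With the replicate number as a block 0 members passed in each experiment, and *Gapdh* in the Vangl1/2 experiment had an adjusted p of 0.214 (limma). Over all genes DESeq2 called 20 Vangl1/2, 100 Dermo1-Cre and 9 Sox9-Cre genes against 1, 2 and 0 by limma and 1, 2 and 0 by edgeR, and the block gave 16 Dermo1-Cre genes. *Eno1* rests on the fewest reads, at 3.94 to 19.5 normalized counts.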
